A study of Homo sapiens with 10 samples.

Results

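The pilot MiSeq libraries of RibOxi-seq held 2 control and 2 oxidized libraries of total RNA from PA1, a human cell line derived from an ovarian teratoma, at passage 7. They were 4 of the 10 libraries examined, and the other 6 were sequenced on the NextSeq (3 control and 3 oxidized, with replicate 3 of each from passage 4 and the others from passage 6). In both groups RNA was cut at random with Benzonase. In the study's protocol, control RNA was then set aside until the linker was ligated, whereas the oxidized group went through a first periodate oxidation, β-elimination of the last base, removal of phosphates with T4 PNK and a final periodate oxidation, so the groups differed by all of these steps. The question was which of the 106 known 2′-O-methylated sites (40 in 18S and 66 in 28S, the entries of the study's site list other than its own additions) were weak or missing in the pilot, and where the remaining oxidized counts lay. PA1 is 1 line, and the counts cover rRNA alone, so the identity of the cells could not be checked against marker genes.

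2′-O-methylation adds a methyl group to the ribose of an RNA nucleotide. In rRNA most of it is carried out by fibrillarin, and box C/D snoRNAs guide this enzyme by pairing with the rRNA around the target base. Periodate opens the ribose of an unmethylated 3′-end, which then cannot be ligated to a linker, whereas a 3′-end with a 2′-O-methyl group can still be ligated. A methylated base also resists cleavage behind it, so that in control libraries such a site tends to appear as a gap, and in oxidized libraries as a peak.

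Positions follow hg19. On its unplaced rRNA contig, 18S positions 1 to 1869 are bases 109078 to 110946 and 28S positions 0 to 5069 are bases 113348 to 118417, both on the plus strand. The bases around the 6 known sites that were not called and stayed at or below 150 counts in both oxidized libraries are shown because the account of missing sites turns on them. Each runs 5′ to 3′ from 10 nt before the site to 10 nt after it, as read from the GRCh37 reference with U for T, and the capital marks the site.
28S U4226 (bases 117564 to 117584): guaacgcaggUguccuaaggc
18S U1668 (bases 110735 to 110755): gucauaagcuUgcguugauua
28S C2291 (bases 115629 to 115649): aggagggccgCugcggugagc
28S G3719 (bases 117057 to 117077): gaaugucaaaGugaagaaauu
28S U4043 (bases 117381 to 117401): gggccgccggUgaaauaccac
28S U4497 (bases 117835 to 117855): agcguuggauUguucacccac

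The deposited value at each position is a whole number that the study's methods describe as a count of sense alignments whose 3′-end lies there, and it is called a count here. The control libraries summed to 44061905 and 30392418 counts, and the oxidized libraries to 1568883 and 1353768. Counts gathered at multiples of 50, more so beyond 28S position 4482, where the second rRNA copy on the contig ends. There, 98.4% and 97.9% of the oxidized positions with counts held a multiple of 50, against 26.3% and 28.5% before that position. In the control libraries the shares were 77.0% and 79.0% there, against 6.04% and 6.75% before that position. The oxidized totals correspond to 31023 and 26762 whole steps of 50 and the control totals to 878806 and 605488. Both control totals are many times the number of reads that the study gives for a MiSeq library, so a count is not a read. What a step of 50 stands for, such as a score summed over alignments, was not tested, and what 1 read adds may differ between positions, so that shares compared between positions carry this limit. Where libraries are set side by side, counts are also given as CPM, the count scaled to a library total of 1000000. Counts were found at 3109 and 3011 of the 6939 positions in the oxidized libraries, and at 6547 and 6522 in the control libraries.

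The replicates were compared in whole steps of 50, with remainders dropped and each step taken as 1 independent unit, which was not tested. On that scale the chi-square statistic per degree of freedom was 1.003 between the oxidized and 3.28 between the control replicates. It covers counting error only, and PCR copies are not independent molecules. Their Spearman correlation across the 6939 positions, which are not independent replicates, was 0.85, and that of the control libraries 0.98. Nothing in the labels says that the replicates came from separate cultures, so p-values measure the spread between these libraries, which may be technical. Among the NextSeq libraries, control replicate 3 stood apart, with a Spearman correlation of 0.58 and 0.59 with control replicates 1 and 2, against 0.99 between those, and with 26.5% of its counts outside known sites at A, against 10.6% and 10.5%. Several comparisons with the NextSeq libraries are therefore also given without it. The oxidized MiSeq pair was kept as 2 libraries, and counts of calls with the pair summed to 1 library are given beside the main ones.

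Known sites held 59.2% and 59.3% of the oxidized counts, and 0.173% of the counts of each control library. The remaining 40.8% ± 0.06 (SD, n = 2) of the oxidized counts lay at the other 6833 positions. In the oxidized NextSeq libraries the share outside known sites was 5.01% ± 0.20 (SD, n = 3). The share was similar in both rRNAs of the pilot, at 41.7% ± 0.01 (SD, n = 2) of the 18S counts and 40.5% ± 0.08 of the 28S counts. In the last part of 28S, where steps of 50 were nearly pure in the oxidized libraries, it was 34.0% ± 0.31 (SD, n = 2).

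The test of oxidized against control libraries covered the 6661 positions with a count in any MiSeq library. A position was called when its log2 fold change was above 7 and its adjusted p-value under 0.05 (quasi-likelihood test of edgeR, Benjamini-Hochberg). Of all positions tested, 157 (2.36%) were called. They comprised 86 of the 106 known sites, 36 of 40 in 18S and 50 of 66 in 28S, and 71 other positions. With the oxidized libraries summed into 1, which is then assumed to vary like the control pair, 91 known and 91 other positions were called. Without control replicate 1, 103 positions were called in all, and without control replicate 2, 97, of which 86 and 82 were known sites. The lone control is then assumed to vary like the oxidized pair. The median log2 fold change was 10.29 over known sites and -4.76 over all positions tested, or -4.98 over all positions with library totals alone, by which 146 were called. The median over all positions was -8.63 without oxidized replicate 1 and -8.03 without oxidized replicate 2. Of the 6939 positions, 3830 and 3928 held no count in the oxidized libraries, where a fitted fold depends on the prior count. Counts were scaled to library totals with TMM factors (1.04 and 1.15 for the controls, 0.92 and 0.91 for the oxidized libraries), and known sites took more of the oxidized totals than all other positions together. Both oxidized shares were above both control shares at 100 known sites, against 14.4% of all positions tested. With 2 libraries against 2, no single position can reach an exact permutation p under 0.333, and all p-values rest on a spread estimated across positions.

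**Figure D1:**
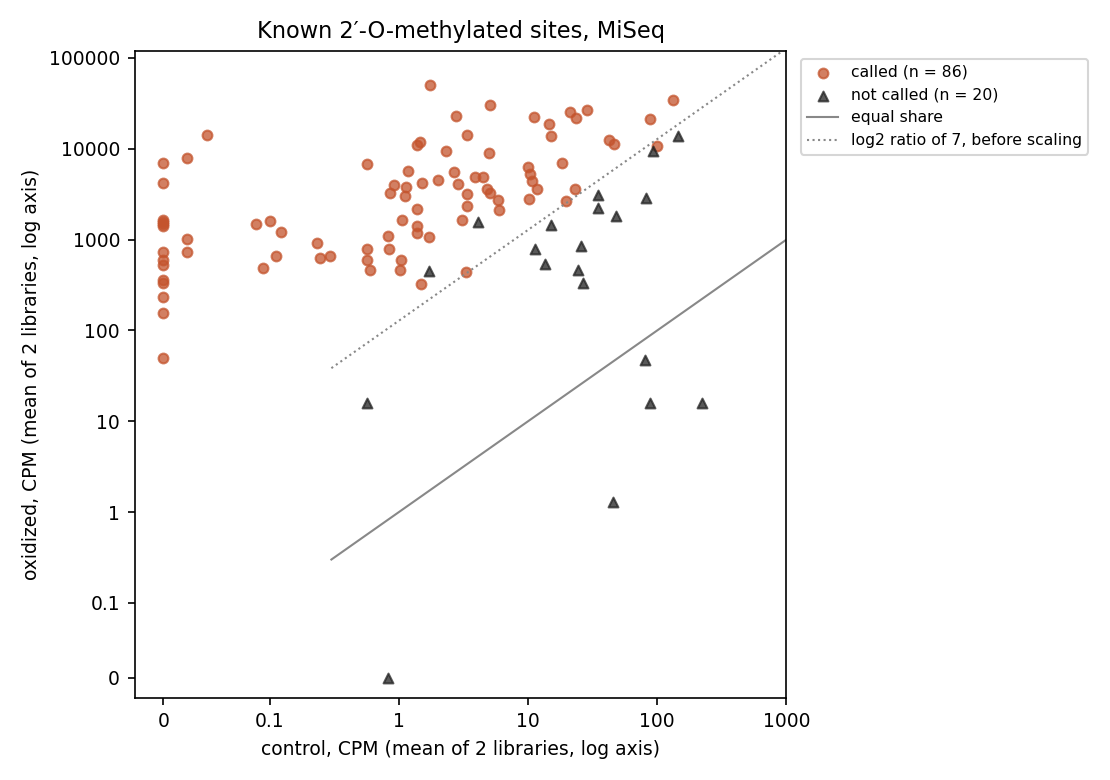
Each point is 1 of the 106 known sites, with the mean CPM of the 2 control libraries on the horizontal axis and of the 2 oxidized libraries on the vertical axis, both logarithmic with 0 drawn at the end. The 86 sites called lie above the dotted line of a log2 ratio of 7 or close to it, and 4 of the 20 not called lie below the line of equal shares with control means above 40 CPM.

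The most abundant known sites carried large and even shares of the oxidized libraries. 28S G3791, a target of SNORD15A, held 77777 and 67878 oxidized counts against 152 and 0 control counts, which was 4.99% ± 0.04 (SD, n = 2) of the oxidized total. 28S U3924, listed under U52, followed with 53811 and 46678 counts against 5727 and 4164 in the control libraries, and 28S G4636, listed under SNORD121A/B, with 48800 and 40800 against 450 and 0. In these 3 sites, which were chosen by oxidized share, the groups did not overlap. Both oxidized shares were above both control shares at 100 of the 106 known sites and at 14.4% of all positions tested. The next 7 by share were 28S C2421, C4535, A3784 and U4305, 18S U1804, and 28S A3759 and G2423, with means of 1.87% to 2.69%. All 10 were called, with log2 fold changes from 8.18 (A3759) to 14.99 (G3791, standard error 3.14).

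18S U1804, a target of U20, took a much smaller share than in the NextSeq libraries. It held 34759 and 29791 oxidized MiSeq counts, or 2.21% of the total, against a mean of 296200 CPM in the oxidized NextSeq libraries. The log2 fold change was 10.14 in the MiSeq libraries and 14.39 in the NextSeq libraries, each fitted alone. A joint fit of all 10 libraries, which has its own scaling, gave a difference of -3.76 with TMM (adjusted p = 0.027 by edgeR), of -3.33 without NextSeq control replicate 3 and of -0.70 with library totals (adjusted p = 0.46).

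The largest log2 fold changes belonged to sites with almost no control counts. 28S G4493, listed under HBII-210, held 11400 and 9250 oxidized counts and none in either control, and 28S G1624, listed under U80, 5678 and 6423 and none. Against a floor of 3 steps of 50 counts in each control library, these were at least 1691-fold and 1003-fold higher, and 28S C2823 (U95; 2630 and 2228 counts against 0 and 0) was at least 398-fold higher. 18S A1678, listed under U82, held 22037 and 19354 oxidized counts against 0 and 2, and 18S G1490, listed under U25, held 11539 and 11502 against 2 and 0. In all, 14 known sites had no count in either control, and all 14 were called, so their fitted folds depend on the prior count.

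At the other end, 5 called sites lay closest to the threshold. The change at 28S A3829 was 7.01 ± 0.32 (log2 fold change and standard error), with 17728 and 13882 oxidized counts against 4820 and 2711 in the control libraries. The others were 28S A1533 (7.33), 18S C1272 (7.37), 28S A1523 (7.52) and 18S G509 (8.04). The site just below the threshold was 28S C2350 at 6.90, with 14213 and 13057 oxidized counts, close to the abundance of A3829.

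Of the 20 known sites not called, 1 was missing and 19 were weak. A site is termed missing where neither oxidized library held more than 3 counts, and weak where it was not missing and not called. The weak sites were 4 in 18S and 15 in 28S. By base, 5 of 32 A, 3 of 24 C, 7 of 30 G and 5 of 20 U sites were not called. At the floor of 150 counts given below for a count of 0, the missing site cannot be told apart from the 5 weak ones that stayed at or below that floor. The sites not called fell into 3 sets: sites at or near 0 in the oxidized libraries, sites raised with a log2 fold change below 7, and sites above 7 whose adjusted p-value missed 0.05.

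28S U4226, a target of U58C, was the missing site. It held no count in either oxidized library and 0 and 50 counts in the control libraries. A count of 0 allows up to 3 steps of 50, or 95.6 and 111 CPM in the oxidized libraries. In the oxidized NextSeq libraries the site held 11702, 10939 and 11626 counts, a mean of 874 CPM. Its 3′ neighbour 28S G4227, also a known site, held 1853 and 1350 oxidized MiSeq counts against 0 and 50, which gave a log2 fold change of 10.71 ± 2.60 (standard error), with adjusted p = 0.029 by edgeR. The ratio of U4226 to G4227 was thus 0 in both MiSeq libraries and 0.60, 0.58 and 0.61 in the NextSeq libraries. The base before it, G4225, was listed at 0 in both oxidized libraries and held 1900 and 1557 control counts.

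The other pair of neighbouring known sites, 28S U4497 and G4498, is listed under SNORD62A/B. U4497 held 50 and 0 oxidized counts, the same values as in the control libraries, and was not called (log2 fold change 4.97, standard error 2.97, adjusted p = 0.22 by edgeR). G4498 held 6100 and 4900 against 100 and 0 and was called at a log2 fold change of 11.85. The ratio of U4497 to G4498 was 0.008 and 0 in the MiSeq libraries and 0.014 to 0.017 in the NextSeq libraries.

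Another 4 sites were near 0 in the oxidized libraries although both controls covered them. 18S U1668, for which the list gives no known guide, held 4 and 0 oxidized counts against 1846 and 1488 control counts. It was the 1 known site lowered at an adjusted p under 0.05 (log2 fold change -4.85, standard error 1.36, adjusted p = 0.042 by edgeR). Of all positions tested, 51.6% were lowered by the same test. U1668 lost this call with counts divided by 50 (-7.14, adjusted p = 0.063 by edgeR) and with replicate number as a block (-5.60, adjusted p = 0.22). Its change missed the threshold without control replicate 1 (adjusted p = 0.33 by edgeR) or 2 (0.33), and was -13.15 without oxidized replicate 1 and -3.80 without oxidized replicate 2. 28S C2291, listed under U48, held 50 and 0 against 8505 and 7557. 28S G3719, listed under U37, held 50 and 0 against 4429 and 2270, and 28S U4043, listed under U102, 150 and 0 against 3855 and 2255. The oxidized NextSeq libraries were also low at these sites, with 2, 52 and 6 counts at U1668, 104, 56 and 106 at C2291, 4, 100 and 102 at G3719 and 0 in all 3 libraries at U4043.

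For G3719 and U4043 the listed base differs from the reference base at that number (A3719G and G4043U, with the listed base first). No direct neighbour of either was called. A3718 held 103 and 200 oxidized counts against 11687 and 6793, U3720 302 and 203 against 6034 and 4522 (log2 fold change 0.52, adjusted p = 0.22 by edgeR), G4042 100 and 200 against 10122 and 7514, and G4044 150 and 0 against 5521 and 2852. A3717, however, which is 2 nt before G3719 and was added to the list by the study, held 2538 and 2681 oxidized counts against 600 and 250 and was called.

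A further 12 sites were raised in both oxidized libraries without reaching a log2 fold change of 7. In ascending order they were 28S A2362 (3.93), 18S G436 (4.51), 28S G1315 (5.27), A2400 (5.40) and G4617 (5.53), 18S C797 (5.58), 28S A4589 (6.28), 18S U428 (6.38), and 28S G1521 (6.70), G3743 (6.83), A3824 (6.88) and C2350 (6.90). Each had an adjusted p-value of 0.0059 to 0.0069 by edgeR, against 10.6% of all positions tested that were raised at that threshold of 0.05. Several were abundant. G3743 held 20868 and 19028 oxidized counts, a mean of 13678 CPM against a median of 3098 over the called sites, but also 6175 and 4480 control counts. At the low end, A2362 held 566 and 414 oxidized counts against 906 and 982. The base after it, G2363, which is not on the list, held 1019 and 670 against 4 and 102 and was called (log2 fold change 8.70). G2363 is also the base directly before C2364, a known site that was called.

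The last 2 weak sites missed the p-value threshold alone. 28S G4369, a target of U60, held 550 and 750 oxidized counts against 150 and 0 (log2 fold change 8.23, adjusted p = 0.063 by edgeR). 28S A3866, listed under HBII-316, held 2461 and 2065 against 0 and 250 (8.88, adjusted p = 0.069). In both, 1 control library was at 0 and the other was not. The groups did not overlap there, as at 100 of the 106 known sites and 14.4% of all positions tested.

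Of the 5 guides that the list names for more than 1 site, U50 and U95 had both sites called, U24 and SNORD62A/B had 1 of 2, and HBII-202 had neither of its 2, 18S U428 and 28S A2400. U428 held 1360 and 933 oxidized counts against 374 and 427 in the controls, and A2400 held 4778 and 3586 against 3014 and 2863. Both were raised, with log2 fold changes below 7.

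The control libraries differed between sites that were called and those that were not. The control gap divides the control count at a site by the median of its flanks, 10 nt either way without known sites, so that a value below 1 marks a dip. Its median over the 86 called sites was 0.046 and 0.024 in control replicates 1 and 2, and all 84 with a defined gap lay below 1 in both. The other 2, 18S A668 and 28S C3807, had flanks with a median of 0. Over the 20 sites not called, the medians were 0.29 and 0.26. U1668 and C2291 showed no dip, with 1.22 and 1.16 and with 1.34 and 1.54, whereas G3719 was at 0.53 and 0.38 and U4043 at 0.60 and 0.54. The control counts enter the fold change, so the gap is a description of the calls and not independent of them.

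**Figure D2:**
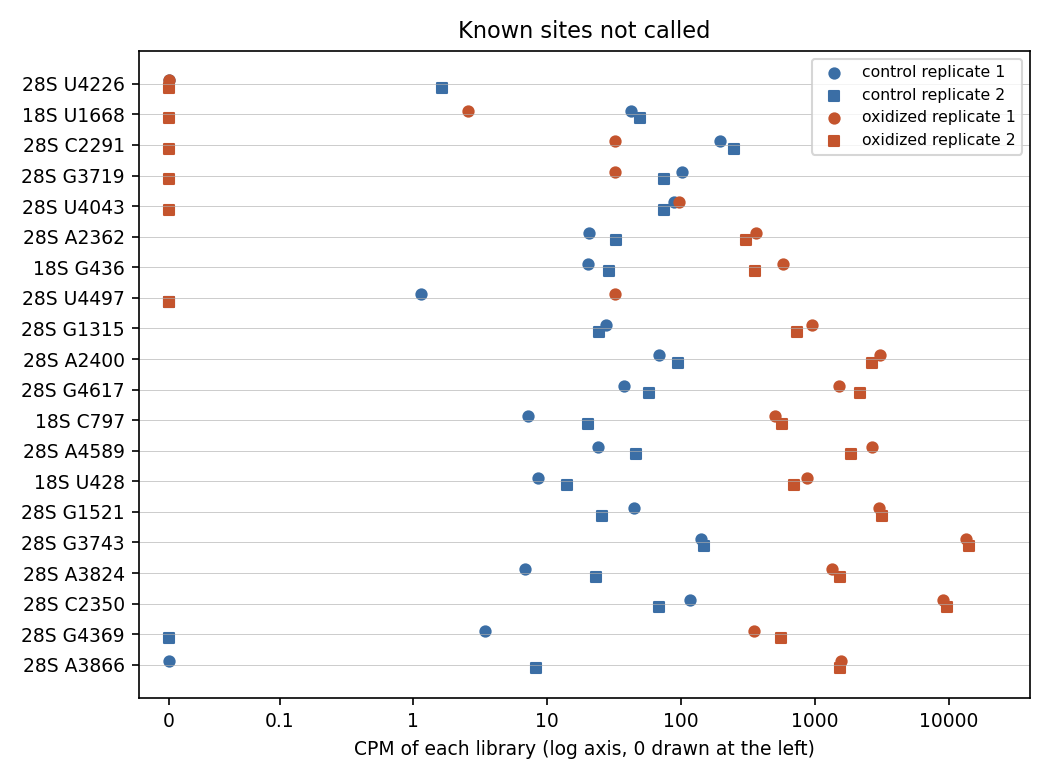
Each row is 1 of the 20 known sites not called, ordered by log2 fold change, and each point the CPM of 1 library on a logarithmic axis with 0 drawn at the left. At 28S U4226, C2291, G3719 and U4043, 18S U1668 and 28S U4497 at least 1 oxidized library is at 0, whereas the other 14 sites have both oxidized libraries above both controls.

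The change was also compared with that in the NextSeq libraries, with a test of the difference in a joint fit of all 10 libraries, whose scaling differs from that of the separate fits. It differed at 18 known sites (adjusted p under 0.05 by edgeR, interaction of oxidation and experiment), against 8.2% of the 6732 positions tested. With TMM the fold was lower in the MiSeq libraries at 12 of the 18 and higher at 6, but scaled to library totals alone 19 known sites differed, 1 lower and 18 higher, and 7 of them were among the 18. The median difference over all positions was -0.88 with TMM and 1.22 with library totals on the log2 scale, so the direction at known sites depends on the scaling. It also depends on single libraries, since with TMM 2 known sites were lower and 5 higher without oxidized MiSeq replicate 1, 1 and 5 without oxidized MiSeq replicate 2, 4 and 5 without NextSeq control replicate 1, and 35 and 14 without NextSeq control replicate 3. Among the weak sites, the difference in log2 fold change with TMM was -5.23 at A4589 (standard error 0.67), -4.77 at A3824, -4.35 at G1315, -3.96 at C797 and -3.06 at U428. Without NextSeq control replicate 3 it was -5.32, -5.56, -4.61, -3.69 and -3.22 in the same order. With library totals it was -1.75, -1.03, -0.76, -0.75 and 0.47 in the same order, and none of the 5 passed the threshold. A4589 illustrates the raw values: 4150 and 2500 oxidized MiSeq counts against 1050 and 1400, and 98650, 101300 and 116200 oxidized NextSeq counts against 1550, 2000 and 4950. At A2362 the NextSeq controls held 260, 204 and 6113 counts against 58, 304 and 311 in the oxidized libraries, so that its NextSeq log2 fold change was 3.76 with all libraries and 6.12 without control replicate 3, against 3.93 in MiSeq, and the difference did not pass the threshold in either case. Passage, input, run and depth changed together between the experiments and cannot be told apart. Leaving out either MiSeq control left no known site past the threshold. Without MiSeq oxidized replicate 1 or 2 there were 7 and 6, and without NextSeq control replicate 1, 2 or 3 there were 9, 11 and 49. With passage as a term there were 22, of which 17 were among the 18, and with the NextSeq libraries of passage 6 alone 44, of which 17 were. With the replicate block there were 0, although the NextSeq numbers did not pair the libraries (correlations of deviations 0.024, -0.016 and 0.013 over 2212 positions).

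Outside known sites, the oxidized counts were spread over many positions. Of the 6833 positions, 3004 and 2911 held counts in the oxidized libraries and 6459 and 6443 in the controls. The most abundant 317 and 325 positions held 50% of these counts in the oxidized libraries, and 531 and 561 in the controls. Both numbers depend on depth, which was far lower in the oxidized libraries, so the groups are not compared on them. The Spearman correlation across these positions between an oxidized and a control library was 0.31 to 0.33, over positions that share each library's depth.

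The counts gathered beside known sites. Within 5 nt of a known site lay 26.9% ± 0.14 (SD, n = 2) of the oxidized counts outside known sites, against 13.9% ± 0.34 (SD, n = 2) in the controls, and 12.7% of the positions. In the last part of 28S alone these shares were 40.9% ± 0.78, 7.05% ± 1.2 and 13.2%. Within 1 nt the shares were 9.24%, 3.79% and 2.91%. Beyond 50 nt they were 27.5% ± 0.15 in the oxidized libraries and 53.1% ± 1.7 in the controls, with 49.7% of the positions there. In each of these comparisons both oxidized libraries lay on the same side of both controls. The base directly after a known site held 5.24% of the oxidized counts outside known sites, against 2.42% in the controls and 1.52% of the positions. That directly before it held 3.99%, against 1.37% and 1.39%. A base midway between 2 known sites was assigned to the one on its 5′ side. The base 2 nt before a known site held 3.70% and 3.85% in the 2 oxidized libraries. From 2 to 5 nt the upstream side held more (10.2%) than the downstream side (7.44%), and in the controls the sides held 4.90% and 5.2%. The oxidized NextSeq libraries had 53.0% ± 2.2 (SD, n = 3) of their counts outside known sites within 5 nt, against 20.6% ± 1.9 (SD, n = 3) in the NextSeq controls, of which replicates 1 and 2 held 21.6% and 21.7% and replicate 3 held 18.4%.

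**Figure D3:**
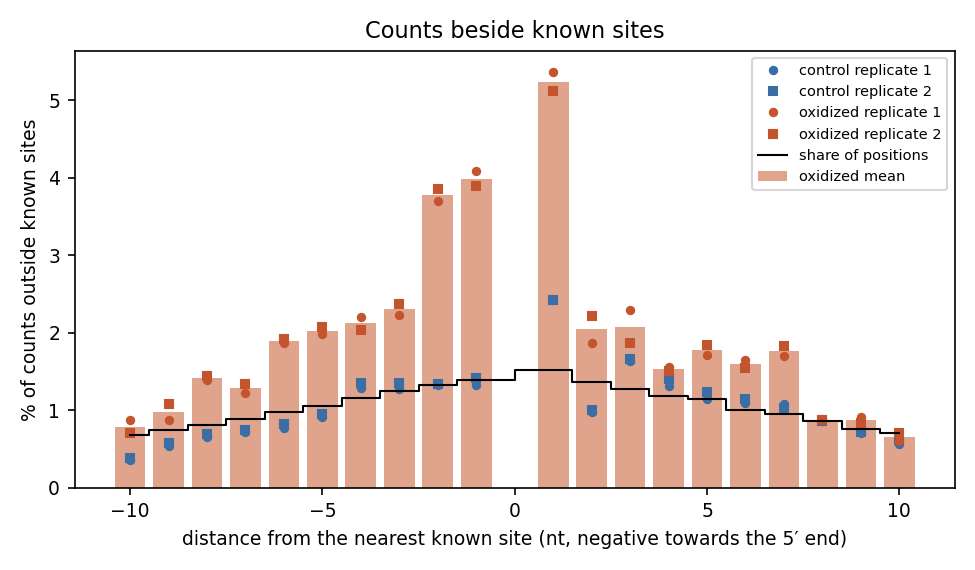
Bars give the mean share of the oxidized counts outside known sites at each distance from the nearest known site, and points give each library. The black line is the share of positions at that distance, and the controls follow it more closely than the oxidized libraries, which exceed 3.6% at 2 nt and 1 nt before a site and 5.1% at 1 nt after it.

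By rRNA, 18S held 20.3% ± 0.37 (SD, n = 2) of the oxidized counts outside known sites, against 8.19% ± 0.59 of the control counts and 26.8% of the positions. By base, A and U held more of them than in the controls (26.0% against 20.1%, and 24.5% against 17.5%), and C and G less (27.4% against 31.2%, and 22.1% against 31.3%). Both oxidized libraries lay on the same side of both controls for each base.

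Along the molecules, the counts outside known sites were summed over 70 windows of 100 nt, each relative to the total outside known sites of its library. In oxidized against control libraries, 26 windows (37.1%) were raised and 31 (44.3%) lowered at an adjusted p under 0.05 by edgeR. The raised windows were 12 of 19 in 18S and 14 of 51 in 28S, and they held 64.7% of the oxidized and 28.7% of the control counts outside known sites. Of the 26, 22 held a known site, although known sites themselves were left out, and of the 31 lowered windows 7 did, against 36 of all 70 windows (51.4%). Windows with a known site held 72.9% of the oxidized and 51.8% of the control counts outside known sites.

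The most abundant window was 28S 2700 to 2799, with 9.38% ± 0.18 (SD, n = 2) of the oxidized counts outside known sites. The controls held 8.06% ± 0.29 there, so that its fold was only 1.16. 28S 3701 to 3799, with 7 known sites, held 6.84% ± 0.04 against 2.71% ± 0.09. 28S 4500 to 4599 held 4.82% ± 0.11 against 1.20% ± 0.37, and 28S 4600 to 4699 held 4.82% ± 0.34 against 1.68% ± 0.01. Each of these last 2 windows held 4 known sites.

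Only 4 raised windows held no known site. The first 100 nt of 28S held 5.36% ± 0.07 (SD, n = 2) against 1.34% ± 0.14 in the controls, a 4.01-fold change, although neither this window nor the 2 after it hold a known site. There U30 held 7354 and 6866 oxidized counts against 37181 and 17947 control counts, and C40 5285 and 4497 against 4079 and 3353. This end of 28S pairs with 5.8S rRNA in the ribosome. 18S 900 to 999 held 4.30% ± 0.02 against 0.68% ± 0.05, a 6.31-fold change, and 56.7% and 56.9% of the window's oxidized counts fell on A904 alone. The remaining 2 were 18S 1500 to 1599 (1.98-fold) and 28S 5000 to 5069 (1.70-fold).

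**Figure D4:**
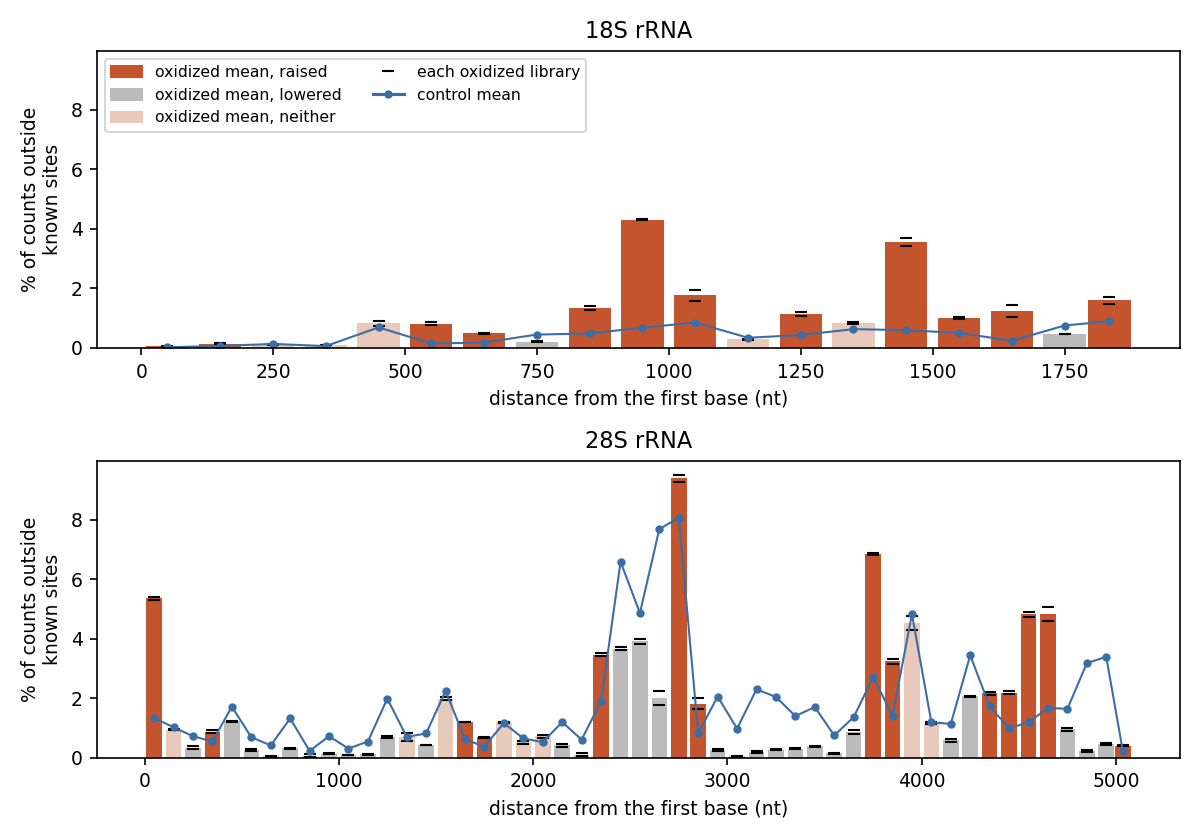
Bars give the mean share of the oxidized counts outside known sites in each window of 100 nt along 18S and 28S, short black lines each oxidized library, and the blue line the control mean. Raised windows (26 of 70) include most of 18S beyond 500 nt and, in 28S, the window at its start and several from 2700 nt on, whereas 28S from 600 to 1299 nt, from 2900 to 3699 nt and from 4700 to 4999 nt holds lowered windows alone.

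The lowered windows formed long runs in 28S. All 7 windows from 600 to 1299 and all 8 from 2900 to 3699 were lowered, as were the 3 from 4700 to 4999. The strongest changes were 28S 3000 to 3099 (0.048% of the oxidized against 0.98% of the control counts outside known sites, log2 fold change -4.36), 4800 to 4899 (-3.72) and 3100 to 3199 (-3.54). These stretches hold large expansion segments, parts of 28S that are longer in vertebrates than in yeast. Of their 18 windows, only the one from 3600 nt holds a known site.

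Single positions outside known sites ranked far below the strongest sites. By oxidized share, 46 of the 50 and 70 of the 106 most abundant positions were known sites, and the most abundant other position stood at rank 20. It was 18S A904, shown here because it was the most abundant of them in both oxidized libraries, with the capital at A904, in bases 109971 to 109991 of the contig.
18S A904: gguuuucggaAcugaggccau
A904 lies 37 nt after the nearest known site and held 15683 and 13427 oxidized counts against 8525 and 4536 control counts. Its share was 0.996% of the oxidized counts, its log2 fold change was 6.11 ± 0.33 (standard error), and in the NextSeq libraries the log2 fold change was 7.09 (adjusted p = 0.014 by edgeR), or 8.13 without control replicate 3. It was not called in the MiSeq libraries, being below 7.

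The other 9 most abundant positions outside known sites held 0.18% to 0.49% of the oxidized counts each. They were 28S U30, C40, A4552 and C2737, 18S C1440, and 28S A4625, A3758, G28 and A3806. A4625 lay 3 nt after, A3758 1 nt before, A3806 1 nt before and C1440 2 nt before a known site, and the remaining 5 lay 17 nt or more from one. Many had high control counts as well: C2737 held 90751 and 52062 control counts against 2907 and 4710 oxidized counts, and its log2 fold change of 0.75 did not pass the test (adjusted p = 0.20 by edgeR). Of the 10, only A3806 was called. At U30, G28 and A4552 the fold was higher in the MiSeq than in the NextSeq libraries, both with TMM and with library totals.

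The 71 called positions outside known sites were 1.08% of the 6555 such positions tested. Of them, 18S held 39 (54.9%, against 27.0% of the positions tested outside known sites), and A was the base at 42.3% against 17.6%. Of the counts outside known sites, 18S held 20.3% in the oxidized libraries but only 8.19% in the controls, and control counts enter each fold. Within 5 nt of a known site lay 25 (35.2%, against 13.0%), and 11 were direct neighbours. Their abundance varied: 23 had under 60 counts in the oxidized mean, 23 held at least 200 counts in both oxidized libraries, and at 21 both controls were at 0. Of the 71, 6 were raised in the NextSeq libraries at an adjusted p under 0.05 by edgeR, and 2 had a log2 fold change over 7 there, against 1.57% and 0.106% of the 6612 positions outside known sites tested in those libraries. Without NextSeq control replicate 3 these were 21 and 3 of the 71, against 5.62% and 0.397% of 6553 positions. The 2 over 7 with all NextSeq libraries were 28S A3717 (11.02) and A1322 (8.06). The study added both to its list from these same NextSeq libraries, so their change there is not a separate recurrence. Of the 71, only 16 remained called when control replicate 1 was left out and 15 when control replicate 2 was.

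Of the called positions, 39 lay in 8 clusters, defined as 3 or more called positions no more than 5 nt apart. The densest was 28S 3798 to 3810, which surrounds the known site C3807, listed under mgU6-77. It is shown with 4 nt on each side (bases 117142 to 117162), with capitals for the 10 called positions outside known sites, so that C3807 itself is the lower case c after the run of capitals.
28S 3798 to 3810: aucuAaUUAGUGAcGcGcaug
Outside C3807 the stretch held 10082 and 8627 oxidized counts, 1.58% and 1.56% of all oxidized counts outside known sites, against 300 and 150 control counts. The highest position was A3806, the base before the site, with 2826 and 2482 oxidized counts, above the 1922 and 1562 at C3807 itself. A3802 (768 and 1057), G3808 (810 and 506), A3798 (561 and 550), U3804 (553 and 408) and G3803 (708 and 203) had no control count in either library. Against the floor of 3 steps of 50 counts they were at least 152-fold, 107-fold, 91.6-fold, 78.4-fold and 72.1-fold higher, in the same order. The low control counts are part of each of these folds. In the NextSeq controls the stretch was covered with 54067, 57152 and 821734 counts, and the oxidized NextSeq libraries held 10052, 15004 and 16166 there.

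**Figure D5:**
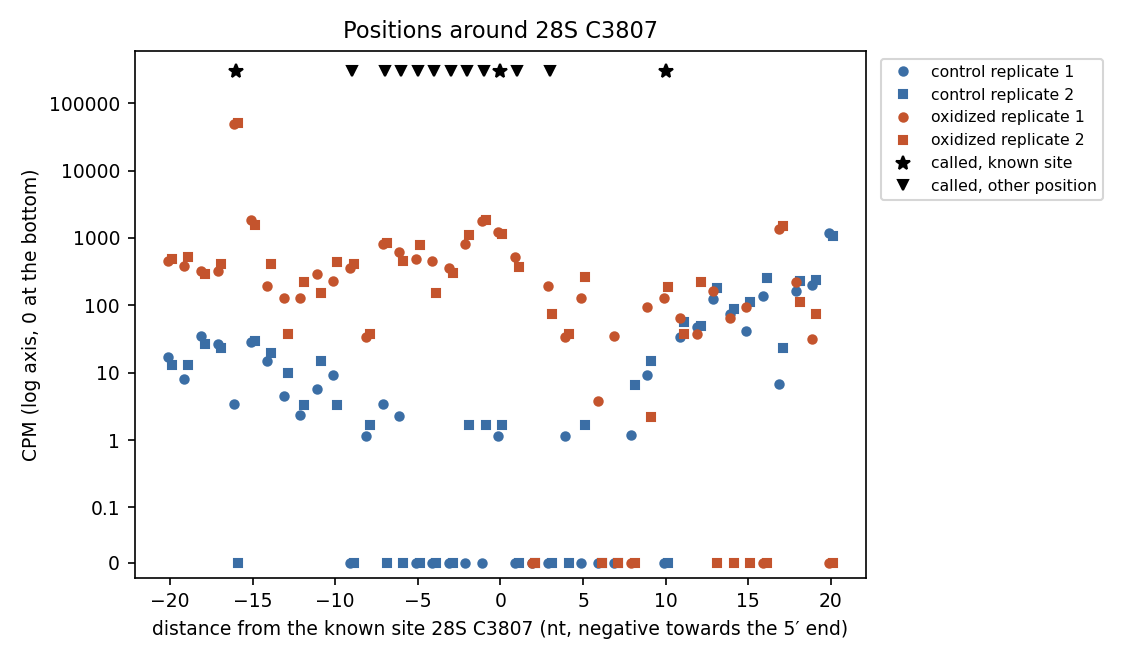
Each point gives the CPM of 1 of the 4 libraries at the 20 positions on each side of 28S C3807, on a logarithmic axis with 0 drawn at the bottom. Stars mark called known sites and triangles the 10 other called positions, where both oxidized libraries lie above 70 CPM and the controls at or near 0.

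The remaining 7 clusters were smaller. 18S 1078 to 1085, with 6 called positions and the nearest known site 47 nt away, held 2818 and 2680 oxidized counts against 212 and 543. Its most abundant position, C1079, held 1223 and 1547 counts against 72 and 331 (log2 fold change 7.57, standard error 1.25). 28S 52 to 59 held 2040 and 1912 against 499 and 394, and 28S 4516 to 4519, 3 nt from a known site, 1100 and 650 against 100 and 50. 18S 530 to 536, 18S 648 to 659, 28S 365 to 368 and 28S 1322 to 1331 each held under 600 counts per oxidized library.

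Outside the stretch at C3807, called positions with no control count included 18S U591, directly after a known site (166 and 160 oxidized counts, at least 26.9-fold higher against the floor), and 28S G4519 (500 and 250, at least 60.4-fold) and A4516 (300 and 250, at least 45.1-fold). 18S A1030 (108 and 152), and 28S G3810 (300 and 100) at the end of that stretch, also had no control count, but 1 oxidized library of each was below the floor of 150 counts. The study's site list marks 2 positions as additions to the known sites, both in 28S. At A3717 the oxidized libraries stood 7.60 ± 0.53 above the controls (log2 fold change and standard error), and at A1322, with 312 and 304 oxidized counts against 112 and 2, they stood 7.52 ± 2.04 above. Both were called, and A1322 belongs to the cluster at 28S 1322 to 1331. 18S U354, which the study's text also names as an addition but the list does not hold, is given here after its values were seen, with 390 and 232 oxidized counts against 94 and 172 in the controls, and was not called.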

How the data were processed

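The authors deposited whole, unnormalized values, 1 for each rRNA position, described in their methods as counts of the 3′-ends of sense alignments. They gather at multiples of 50, and the control totals exceed the reads sequenced, so they are not numbers of reads. What a step stands for was not tested, and edgeR was also run on counts divided by 50. Per the study's methods and the submitters' processing notes, reads were trimmed with cutadapt (1.12), PCR duplicates were collapsed by randomers of 6 bases, and reads were aligned with TopHat2 (2.1.1) to hg19 and converted with SAMtools (0.1.19) and BEDtools. The reference holds 2 copies of each rRNA, of which the second 28S copy ends at position 4482. Reads from the parts present in both copies cannot be separated. Lines outside 18S and 28S (0 counts) were dropped. The authors' tables of comparisons hold fold changes and p-values from DESeq2 and were not used.

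Positions with at least 1 count in any MiSeq library were tested with edgeR 4.0.16 in R 4.3.3 (TMM, quasi-likelihood, Benjamini-Hochberg over all positions). Standard errors were derived as the absolute log2 fold change divided by the square root of the quasi-likelihood F statistic. A call needed a log2 fold change over 7 with an adjusted p-value under 0.05, because the study's 0.0001 left no calls with this test. With DESeq2, which the study used, 156 positions were called at 0.0001. Windows of 100 nt were tested without TMM, with library size taken as the total outside known sites. The code was tested on simulated data. DESeq2 1.42.0, other scalings and filters, thresholds and left-out libraries served as alternatives.

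Named positions were all weak or missing sites, the 10 most abundant known and other positions, the 5 called known sites at each end, the 10 other called positions with the largest change, neighbouring pairs, the study's 2 additions to the list and the most abundant position of each raised window. Sites, lists and tests were chosen with earlier results of these data known. Floors (3 steps of 50 counts, per library) cover counting error only, and PCR copies are not independent molecules.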

Additional observations from a re-analysis of the deposited data

Results flagged for a closer look

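At 29 of the 82 named positions, against 8.2% of all 6732 positions tested, the change with oxidation differed between the MiSeq and NextSeq libraries (adjusted p under 0.05 by edgeR, interaction over all 10 libraries). Many named positions were chosen as extremes of the MiSeq libraries. Values are the interaction term of that joint fit on the log2 scale, MiSeq relative to NextSeq. They are not the plain difference of the folds fitted in each experiment alone, since the joint fit has its own scaling. Passage, input, run and depth differ between the experiments, and their part was not tested. In the NextSeq libraries both replicates numbered 3 were of passage 4 and the others of passage 6. Of the 29, 27 still differed with passage as a term, 28 without NextSeq control replicate 3, which stood apart from the other controls, 20 with library totals only, and 0 with the replicate block or without either MiSeq control.

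Values below are with TMM. Library totals alone moved the median difference over all positions from -0.88 to 1.22 and turned the sign at 18S U428 (0.47) and 28S C2421 (0.51). The 28S U4226 difference missed the threshold without NextSeq control replicate 3 (-15.81, adjusted p = 0.075 by edgeR) and with library totals (-13.83, adjusted p = 0.065). The other 8 lost with library totals were 18S C797, U1555, U1804 and U428 and 28S A3824, A4589, C2421 and G1315. Without that control no value changed sign, and the largest move was at 18S A1030 (14.04).

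At known sites the value was negative, so that with TMM the change was smaller in the MiSeq libraries, at 28S U4226 (-16.84), A3829 (-6.16), A4589 (-5.23), A3824 (-4.77), G1315 (-4.35), 18S C797 (-3.96), 18S U1804 (-3.76), 18S U428 (-3.06) and 28S C2421 (-2.96). It was positive at 18S A1678 (6.34), 28S G1624 (7.95), C2823 (8.12) and G4493 (10.20), where the MiSeq controls held 2 counts or fewer.

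Outside known sites it was -6.74 at 18S U1555, and 3.92 at 28S G28, 4.79 at U30, 5.15 at A4552 and 5.58 at C4475. In the stretch around 28S C3807 it was 14.06 at U3804, 14.45 at G3810, 14.65 at A3802, 14.74 at G3803 and 14.85 at G3808. It was 16.04 at 28S G4519, 17.00 at A1775, 17.46 at A4516, 18.07 at 18S U591, 18.48 at 28S G5063 and 19.82 at 18S A1030. At U4226, A1775, G5063 and the stretch and positions with MiSeq controls at 0, a group of libraries was at 0, so the size of the value depends on the prior count and is no bound.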

How the results depend on the processing

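The MiSeq design has 2 libraries a group, and the oxidized libraries held 31023 and 26762 whole steps of 50. Whether either limits the calls at single positions was not tested. Known sites called stayed at 82 to 88 when 1 library was left out, but other positions called ranged from 15 to 85 and all positions called from 97 to 173, the low values without a control library, where the lone control is assumed to vary like the oxidized pair. With counts divided by 50, 46 other positions were called in place of 71. No position was called at an adjusted p-value under 0.0001 by edgeR (42 passed the fold threshold at an unadjusted p under 0.0001), where DESeq2 at that threshold, a combination added after seeing the data, called 156. With the replicate block, which leaves 1 residual degree of freedom, 0 positions were called. The numbers did not pair the libraries (correlation of deviations -0.009 over 2610 positions). The block left 25 of the 26 windows raised. With 200 nt windows, 16 windows were raised, and leaving out a library gave 22 to 26.

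The share outside known sites was 37.0% with a match within 1 nt, 40.6% with the study's added positions counted as known, 40.4% with counts divided by 50, 41.7% in 18S, 40.5% in 28S and 34.0% in the last part of 28S (chosen after seeing the data). The share within 5 nt was 15.1% for 2 nt, 39.1% for 10 nt and 40.9% in the last part of 28S. Leaving out an oxidized library gave 40.7% to 40.8% and 26.8% to 27.0%. Known sites that differed between experiments numbered 18 (12 lower and 6 higher in MiSeq), 19 with library totals only (1 lower and 18 higher), 35 by DESeq2, 6 with counts divided by 50, 0 with the replicate block, 22 with passage as a term and 44 with the NextSeq libraries of passage 6 alone (both added after seeing the data), and 0 to 49 when 1 library was left out. Without an oxidized MiSeq library most of them were higher in MiSeq (2 lower and 5 higher without replicate 1, 1 and 5 without replicate 2), as they were without NextSeq control replicate 1 (4 and 5).

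Among 82 named positions, 46 kept their side of the threshold and direction in every alternative but the block. The fold changed sign at 28S U4301 with counts divided by 50 (-0.23) and library totals only (-0.25), and when 1 library was left out it ranged from -0.061 to 0.14 there, from -13.99 to 0.59 at U4043, from -6.90 to 10.77 at U4497 and from -1.14 to 3.45 at 18S U87. The cause was not tested.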
